A study of Drosophila melanogaster with 6 samples.

Results

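The genes described here are 10 molecular chaperones of Drosophila melanogaster, taken by name from the 17609 genes of the deposited tables. They are 5 inducible Hsp70 copies (Hsp70Ab, Hsp70Ba, Hsp70Bb, Hsp70Bbb and Hsp70Bc), the related inducible gene Hsp68, the constitutive relatives Hsc70-3, Hsc70-4 and Hsc70-5, and Hsp83. The level of each gene was measured by sequencing of total RNA from 6 libraries, 1 for each of 2 genotypes in 3 tissues. In the foxo RNAi flies (labelled ACT88F>Foxo RNAi) Act88F-Gal4 drove a hairpin that targets foxo, the transcription factor held back by insulin signalling. Act88F encodes an actin of the indirect flight muscle, the tissue in which this driver is active. The control flies carried the driver crossed to w1118 (labelled ACT88F>W1118), so both genotypes carried Gal4 and only the foxo RNAi flies carried the hairpin. All flies were 10 days old per the labels and were reared at 25 °C. The sources also give 10 days on a sugar and yeast diet that began 2 to 3 days after eclosion. If age is counted from eclosion, these statements conflict. Whole thorax stood for muscle, intestine for gut, and carcass without intestine and eggs for fat body. The labels state neither the sex of the flies nor the number pooled in a library, nor whether the 3 tissues of a genotype came from the same animals.

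Proteins of the Hsp70 class bind unfolded stretches of other proteins and release them in cycles of ATP hydrolysis, with J-domain proteins and nucleotide exchange factors as partners. Inducible copies are nearly silent in unstressed cells and are transcribed by heat shock factor during heat or protein damage, whereas the Hsc70 genes are expressed throughout life. Hsc70-4 is the main cytosolic form, Hsc70-3 is the form of the endoplasmic reticulum (known as BiP in mammals), and Hsc70-5 is the form of the mitochondrial matrix (mortalin in mammals). Hsp83 is the fly Hsp90, which keeps kinases and receptors in a form that can be activated.

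The inducible copies lie on chromosome arm 3R of Release 6 and each consists of a single exon. Hsp70Ab occupies 11958535 to 11960909 on the plus strand. The B copies lie some distance away, Hsp70Ba at 12465453 to 12467776 on the minus strand, Hsp70Bbb at 12502510 to 12504856, Hsp70Bb at 12505793 to 12508139 and Hsp70Bc at 12509076 to 12511461, the last 3 in a row on the plus strand. These copies are nearly identical in sequence, and the sources used here do not give how reads that match several copies were counted. Values of a single copy are therefore uncertain, and the sum of the 5 copies is given beside them. Hsp68 lies on 3R at 24055080 to 24057310 (minus strand) and also has 1 exon. The remaining members are Hsp83 on 3L at 3192969 to 3197059 (plus), Hsc70-3 on X at 11801696 to 11807117 (minus), Hsc70-4 on 3R at 15242687 to 15246614 (plus) and Hsc70-5 on 2R at 14252598 to 14256192 (minus). None of the 10 lies inside another coding gene. Short overlaps with neighbours on the opposite strand exist for Hsp70Ab (27 bases), Hsp68 (26 bases) and Hsp83 (15 bases).

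The libraries held between 13274574 and 34385727 counted reads, and the foxo RNAi thorax library was the deepest. The targeted gene, foxo, had 3425 control and 4984 foxo RNAi reads in thorax, 1143 and 1031 in gut, and 1637 and 1192 in carcass. Its scaled ratios of foxo RNAi to control were 0.717, 0.783 and 0.764, and none reached 2-fold lower. Marker genes fitted the labelled tissues, with muscle markers at 4.82 and 3.69% of thorax reads, gut markers at 10.6 and 8.69% of gut reads and fat body markers at 10.0 and 7.19% of carcass reads, control first. The fat body markers also made up 4.31 and 4.97% of thorax reads. In bulk tissue, fewer cells of a type and less RNA per cell cannot be told apart.

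Hsc70-4 and Hsp83 dominated the set in every library, and the inducible copies were the lowest, with 1 exception. Levels were compared between genes as CPM (counts per 1e+06 counted reads) per kb of exon. On this scale the mean level of Hsc70-4 was 1243 in thorax, 1175 in gut and 2689 in carcass. Hsp83 came next in each tissue, with means of 541, 388 and 1226. In gut and carcass the order then ran Hsc70-3, Hsc70-5, Hsp68 and Hsp70Bb, with no overlap between neighbours in that order. In thorax the ranges of Hsc70-5 (255 to 317), Hsp70Bb (0.568 to 536) and Hsc70-3 (168 to 329) overlapped. Hsp70Bb took rank 3 of the 10 genes in the foxo RNAi thorax library and rank 6 in each of the other 5 libraries. Together the members made up 0.647 and 0.834% of reads in control and foxo RNAi thorax, 0.600 and 0.576% in gut, and 1.09 and 1.44% in carcass.

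**Figure D1:**
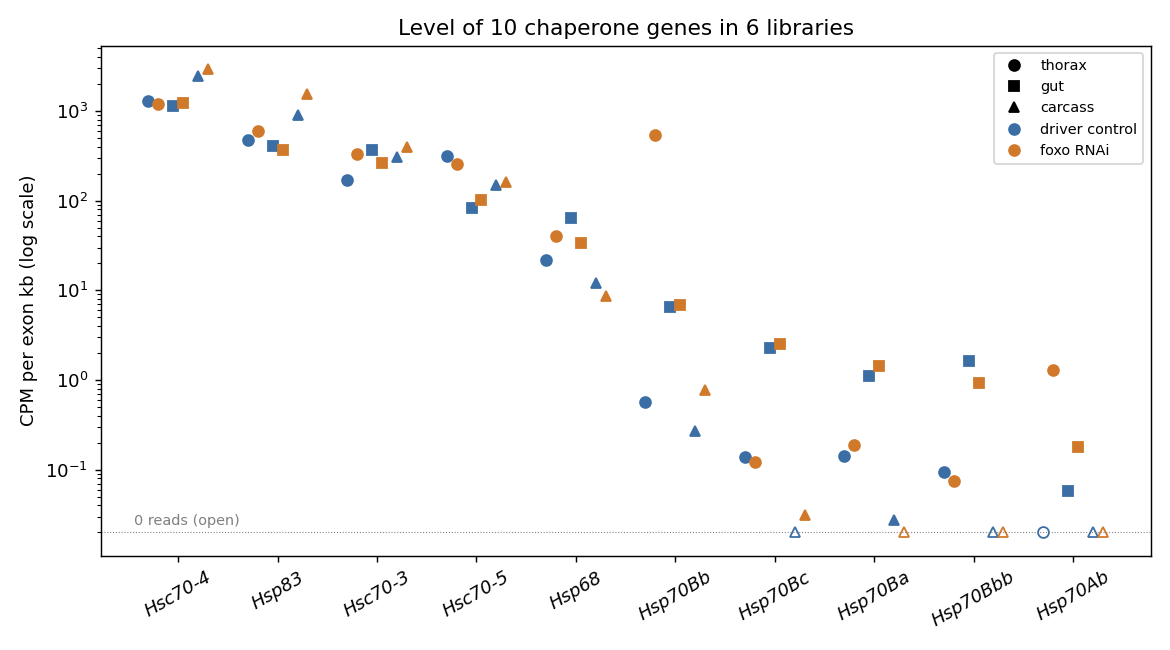
Level of each of the 10 chaperone genes (CPM per kb of exon, log axis) in the 6 libraries; shapes mark tissue, colours mark genotype, and open symbols mark 0 reads. Hsc70-4 leads in every library, and Hsp70Bb in foxo RNAi thorax (536) stands far above its other 5 values, which are all below 7.

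Among the 5 inducible copies, Hsp70Bb held 99.7% of the reads in foxo RNAi thorax. It had 24 reads in control thorax, 43222 in foxo RNAi thorax, 222 and 230 in control and foxo RNAi gut, and 10 and 24 in control and foxo RNAi carcass. As CPM these were 1.33 and 1257 in thorax, 15.3 and 16.2 in gut, and 0.640 and 1.81 in carcass. One library therefore stood apart from the other 5, and among those 5 the gut pair was highest. The scaled thorax ratio was 869 (exact 95% interval 596 to 1385). With 1 library per genotype and tissue this ratio has no replicate check, its interval covers counting error only, and no p-value can be given for the genotypes within a tissue. Ratios were scaled with TMM factors. A gene was called higher or lower at 30 or more reads in the pair, at least 2-fold, with the near interval bound at least 1.5-fold. By this rule the Hsp70Bb ratio was not called in gut, at 0.899 (0.744 to 1.09), or in carcass, at 2.45 (1.16 to 5.90).

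The neighbouring copies did not share that height. Hsp70Bbb had 4 and 6 reads in control and foxo RNAi thorax, and 56 and 31 in gut, with 0 in both carcass libraries. Hsp70Bc had 6 and 10 in thorax, 79 and 85 in gut, and 0 and 1 in carcass. Hsp70Ba had 6 and 15 in thorax, 37 and 47 in gut, and 1 and 0 in carcass. These 3 copies were highest in gut in both genotypes, and each stayed under 30 reads in thorax. Their thorax reads together numbered 16 and 31, a scaled ratio of 0.941 (0.506 to 1.87). In gut the ratio was 0.484 (0.299 to 0.758) for Hsp70Bbb, 0.933 for Hsp70Bc and 1.10 for Hsp70Ba, none called. That of Hsp70Bbb passed 2-fold but missed the rule on the near bound.

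Hsp70Ab differed from its relatives in being nearly absent outside foxo RNAi thorax. It had 0 and 106 reads in control and foxo RNAi thorax, 2 and 6 in gut, and 0 in both carcass libraries. Against a floor of 3 counts in the control library, it was at least 17.4-fold higher in foxo RNAi thorax. The exact interval of the ratio starts at 13.9. The 106 reads equalled 0.244% (exact 95% interval 0.200 to 0.296) of the copy reads in that library. How reads that match both Hsp70Ab and Hsp70Bb were placed was not tested. The sixth inducible copy, Hsp70Aa, is no member of the set and had 1 read in all, in foxo RNAi gut.

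Summed over the 5 copies, reads numbered 40 and 43359 in control and foxo RNAi thorax, 396 and 399 in gut, and 11 and 25 in carcass. The thorax ratio of the sum was 528 (392 to 748), and the ratio of the 4 copies other than Hsp70Bb was 4.11 (2.51 to 7.59), a sum chosen after the data were seen. The gut ratio was 0.874 (0.759 to 1.01), which became 1.03 with total-count scaling. The carcass ratio was 2.32 (1.13 to 5.37), at 36 reads in all, and was not called. Hsp70Bb made up 60.0% of the copy reads in control thorax (exact 95% interval 43.3 to 75.1) and 99.7% (99.6 to 99.7) in foxo RNAi thorax. Its share was 56.1% and 57.6% in control and foxo RNAi gut, and 90.9% and 96.0% in carcass, where the totals were low. The division of the reads over the copies was thus close to 60% for Hsp70Bb in control thorax and both gut libraries, and almost complete in foxo RNAi thorax.

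**Figure D2:**
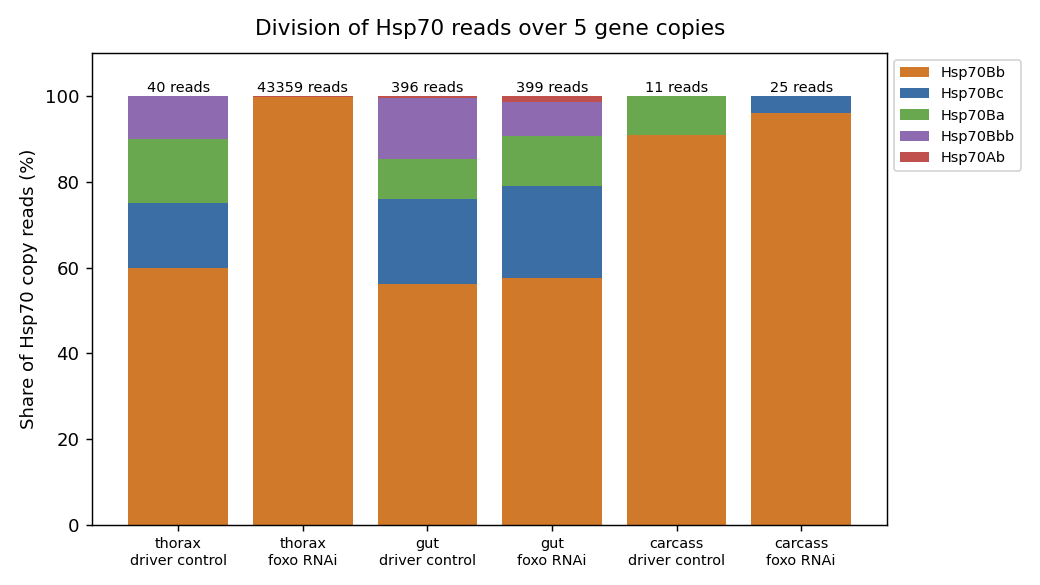
Share of Hsp70 copy reads (percent) that fell on each of the 5 copies in the 6 libraries, with the number of copy reads above each bar. Hsp70Bb holds 99.7% of 43359 reads in foxo RNAi thorax and 56.1 to 60.0% in control thorax and both gut libraries.

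Vectors for Gal4-driven hairpins commonly hold a minimal Hsp70 promoter with part of its leader, and Gal4 driver vectors commonly end in an Hsp70 terminator. Which vectors these lines carry is not stated in the labels. Reads from such sequence and reads from the chromosomal gene cannot be told apart in counts per gene. The foxo RNAi flies alone carried the hairpin construct, and the height of Hsp70Bb appeared in thorax, the tissue that holds the flight muscle, with 230 and 24 reads in gut and carcass of the same genotype. Whether it came from a construct was not tested.

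Hsp68, an inducible Hsp70 relative outside the copy clusters, was called lower in foxo RNAi gut and not called in the other tissues. It had 869 and 3126 reads in control and foxo RNAi thorax (48.3 and 90.9 CPM), 2101 and 1069 in gut (145 and 75.1 CPM), and 420 and 258 in carcass (26.9 and 19.4 CPM). Control gut held the highest level and the carcass pair the lowest. The ratio was 1.77 (1.64 to 1.91) in thorax, which was not called, and the level was 2.26-fold lower (2.10 to 2.44) in foxo RNAi gut, which was called. With total-count scaling the gut ratio was 0.520 and no longer reached 2-fold. In carcass the ratio was 0.645 (0.549 to 0.754), not called.

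Hsc70-3, the chaperone of the endoplasmic reticulum, had 10865 and 40617 reads in control and foxo RNAi thorax (604 and 1181 CPM), 19220 and 13362 in gut (1323 and 939 CPM), and 17279 and 18719 in carcass (1106 and 1410 CPM). Control thorax held the lowest level of the 6. Its ratio was 1.84 (1.80 to 1.88) in thorax, 0.603 (0.590 to 0.617) in gut and 1.14 (1.11 to 1.16) in carcass, none of which was called.

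Hsp83 had 25412 and 61450 reads in control and foxo RNAi thorax (1413 and 1787 CPM), 17369 and 15659 in gut (1195 and 1101 CPM), and 41761 and 60883 in carcass (2673 and 4586 CPM). Both carcass libraries lay above the other 4, and foxo RNAi carcass was the highest. The ratio was 1.19 (1.17 to 1.21) in thorax, 0.782 (0.766 to 0.799) in gut and 1.53 (1.51 to 1.55) in carcass, and none was called.

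The cytosolic Hsc70-4 had 62543 and 112694 reads in thorax (3477 and 3277 CPM), 44530 and 47206 in gut (3064 and 3318 CPM), and 103847 and 105684 in carcass (6648 and 7961 CPM), control first. Both carcass libraries lay above the other 4. Its ratios were 0.888, 0.920 and 1.07 in thorax, gut and carcass, none called, and the gut ratio turned to 1.08 with total-count scaling. The mitochondrial Hsc70-5 had 16681 and 25594 reads in thorax (927 and 744 CPM), 3547 and 4276 in gut (244 and 301 CPM), and 6816 and 6240 in carcass (436 and 470 CPM). In CPM both thorax libraries were the highest and both gut libraries the lowest. The orders of tissues in CPM, here and for the other members, carry no TMM scaling between tissues. With TMM over all 6 libraries the log2 difference of Hsc70-5 between gut and carcass was -0.066. The genotype ratio of Hsc70-5 was 0.756 (0.741 to 0.771) in thorax, 1.05 in gut and 0.960 in carcass, none called. The carcass ratio turned to 1.08 with total-count scaling. Replacing TMM by total counts raised every log2 ratio by 0.086 in thorax, 0.24 in gut and 0.17 in carcass.

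**Figure D3:**
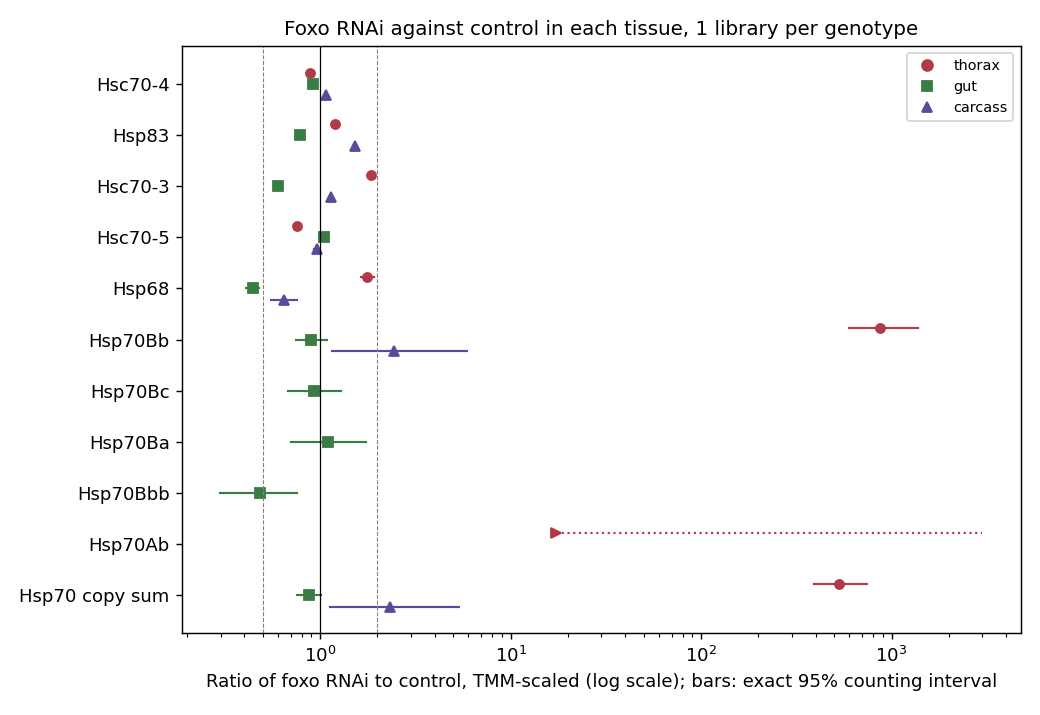
Ratio of foxo RNAi to control (TMM-scaled, log axis) for members with at least 30 reads in a tissue, with exact 95% counting intervals as bars and 2-fold marked by dashed lines; the arrowhead for Hsp70Ab is a lower bound of 17.4 against a floor of 3 counts, its dotted line open to the right. Hsp70Bb (869) and the copy sum (528) in thorax stand apart from the other ratios, most of which lie within 2-fold of 1.

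Across the 10 members, 2 were called higher in foxo RNAi thorax (Hsp70Ab and Hsp70Bb) and 0 lower, 5 were not called and 3 were under the read minimum. Over all 8887 genes compared in thorax, 3.56% were called higher and 2.72% lower. In gut 1 member was called lower (Hsp68) and 0 higher, 8 were not called and 1 was under the read minimum, against 3.18% of 7866 genes called lower and 2.22% higher. In carcass no member was called, 6 being measured and 4 under the read minimum, against 3.41% of 8589 genes called higher and 10.2% lower. A member such as Hsp70Ab reached the read minimum through the library in which it was high, so these counts describe the members and are no support for a difference.

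Markers of other cell types differed between the paired libraries as well. In thorax, the gut markers summed to 0.0583% of reads in the control and 0.265% in foxo RNAi, with 10 of 13 measured markers called higher. Of 10 measured photoreceptor markers there, 6 were called higher and 1 lower (0.0103 and 0.0139% of reads, control first). In carcass, the photoreceptor markers summed to 0.141 and 0.00982% of reads, control first, with 10 of 11 measured called lower and inaC and Rh3 at 0 in foxo RNAi. The gut markers summed to 0.157 and 0.0665% there, with 9 of 12 measured called lower. The ovary and eggshell markers of carcass summed to 0.423 and 1.09%, with 7 of 11 measured called higher, and 4 of 9 measured fat body markers were called lower. In gut, muscle markers summed to 0.118 and 0.196%, with 1 of 12 measured called higher. Markers of the labelled tissue itself also differed. In foxo RNAi thorax 2 of 13 measured muscle markers were called lower and 0 higher. Act88F, the gene of the driver, was 1 of them, 3.02-fold lower (135832 and 91273 reads). In foxo RNAi gut 3 of 13 measured gut markers were called lower and 0 higher. Markers that lie inside another coding gene (Ssk, Arr2, Vm32E, Cp36, Cp38, TpnC4, Fst and PPO1) are listed at 0 in all 6 libraries and were treated as not measured. The copy sum was 28.0 CPM in foxo RNAi gut and 1261 CPM in foxo RNAi thorax. The part of these marker differences in the members' ratios was not tested.

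Tissues were compared over both genotypes with edgeR's quasi-likelihood test on all 6 libraries, with genotype as a covariate. Each tissue then had 2 libraries of different genotype, 2 residual degrees of freedom remained, and nothing in the labels calls them replicates, so the p-values rest on whatever spread a shared genotype effect does not take up. Of the members 9 entered the test, since Hsp70Ab was removed by the filter on low counts.

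Relative to gut, thorax had less of 3 inducible copies and more of the mitochondrial chaperone. Hsc70-5 was higher in thorax by a log2 difference of 1.13 (SE 0.28, adjusted p = 0.0199, edgeR), and both thorax libraries lay above both gut libraries. Hsp70Bc fell by 4.67 on the log2 scale from gut to thorax (SE 0.60, adjusted p = 0.00225, edgeR), Hsp70Bbb by 4.31 (SE 0.63, adjusted p = 0.00588) and Hsp70Ba by 3.37 (SE 0.62, adjusted p = 0.00706), with all of these differing the same way in both genotypes. Of 9 members, 1 passed as higher and 3 as lower in thorax, where 28.1% of all 9293 genes tested passed as higher and 26.5% as lower. Without control gut, adjusted p was 0.144 for Hsc70-5, 0.0960 for Hsp70Bbb and 0.0768 for Hsp70Ba, and without foxo RNAi gut it was 0.0768, 0.0609 and 0.107. Without control thorax, that of Hsc70-5 was 0.109. Hsp70Bc passed under each omission.

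For Hsp70Bb the difference between thorax and gut was 2.90 on the log2 scale (SE 3.19, adjusted p = 0.472, edgeR), with 1.33 and 1257 CPM in the thorax pair. Without foxo RNAi thorax the sum of the copies was lower in thorax by a log2 difference of -3.93 (adjusted p = 0.00164, edgeR), and without control thorax it was higher by 4.79 (adjusted p = 0.000385). With all libraries the difference of the sum was 2.18 (SE 2.90, adjusted p = 0.552). Hsp68 (log2 difference -1.09, adjusted p = 0.113), Hsc70-3 (-0.90, adjusted p = 0.149), Hsc70-4 (-0.41, adjusted p = 0.338) and Hsp83 (-0.042, adjusted p = 0.931) did not pass in edgeR. Hsp68 did pass as lower in thorax when foxo RNAi thorax was left out (adjusted p = 0.00338).

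Relative to carcass, thorax had more Hsp68, Hsc70-5 and Hsp70Ba, the 3 of 9 members that passed, with 0 lower, where 21.9% of all genes passed as higher and 19.3% as lower. Hsp68 was higher by a log2 difference of 1.82 (SE 0.50, adjusted p = 0.0357, edgeR) and Hsc70-5 by 1.06 (SE 0.28, adjusted p = 0.0319, edgeR), with both thorax libraries above both carcass libraries for each gene. Hsp70Ba (adjusted p = 0.0483, edgeR) rested on 21 reads in thorax and 1 in carcass. The ratio of these pooled reads was 11.6 (1.86 to 479), scaled by total counts with no TMM factor and no added count. Neither Hsc70-5 nor Hsp70Ba passed with any 1 of the 6 libraries left out, the lowest adjusted p being 0.0589 and 0.0615. Hsp68 did not pass without foxo RNAi thorax (adjusted p = 0.0956), control carcass (0.0993) or foxo RNAi carcass (0.199). Hsp70Ba also missed the threshold with DESeq2 (adjusted p = 0.0559) and with no filter on low counts (adjusted p = 0.0641), and Hsp68 with limma on RPKM (adjusted p = 0.0509). Hsc70-4 (log2 difference -0.93, adjusted p = 0.0743, edgeR) and Hsp83 (-0.97, adjusted p = 0.0846) were lower in both thorax libraries than in both carcass libraries but did not pass. Both passed with DESeq2, at adjusted p = 0.000107 and 0.0156. The copy sum differed by 8.05 (SE 2.93, adjusted p = 0.0768, edgeR). Without control thorax it passed at 9.97 (adjusted p = 0.000282), and without foxo RNAi thorax it differed by 1.24 (adjusted p = 0.165).

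Gut exceeded carcass in Hsp68 and in 3 Hsp70 copies, 4 of 9 members, with 0 lower, where 20.6% of all genes passed as higher and 22.7% as lower. Hsp68 was higher in gut by a log2 difference of 2.91 (SE 0.51, adjusted p = 0.00801, edgeR), with both gut libraries above both carcass libraries, and did not pass without control gut (adjusted p = 0.0576) or foxo RNAi carcass (0.0647). For the 3 copies, reads were pooled over the 2 genotypes and scaled by total counts, with no TMM factor and no added count. Hsp70Bc had 164 reads in gut and 1 in carcass, a ratio of 165 (29.2 to 6547). Hsp70Ba had 84 and 1, a ratio of 84.4 (14.7 to 3373). Their log2 differences in edgeR, with TMM, were 7.73 and 6.76. Hsp70Bbb had 87 and 0. Its gut level was at least 20.1-fold higher in the control and at least 9.64-fold higher in foxo RNAi. These bounds were set against 3 counts in the carcass library of the same genotype, also by total counts. The adjusted p of these 3 copies was 0.00171, 0.00320 and 0.00410 in edgeR, and each passed with any 1 library left out. The copy sum was higher in gut than in carcass in both genotypes (27.2 and 28.0 against 0.704 and 1.88 CPM), with a log2 difference of 5.87 (SE 2.37, adjusted p = 0.0984, edgeR). It passed when either thorax library was left out, at 5.18 (adjusted p = 9.54e-05) and 5.17 (adjusted p = 0.000123). Hsp83 (-0.93, adjusted p = 0.0952), Hsc70-4 (-0.52, adjusted p = 0.253), Hsc70-3 (0.57, adjusted p = 0.345) and Hsc70-5 (-0.066, adjusted p = 0.864) did not pass in edgeR. Hsp83 and Hsc70-4 did with DESeq2 (adjusted p = 0.0123 and 0.0234). Over the 5 other settings that kept all 6 libraries, Hsc70-5 ranged from -0.74 to -0.068 and passed in at least 1 of them.

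**Figure D4:**
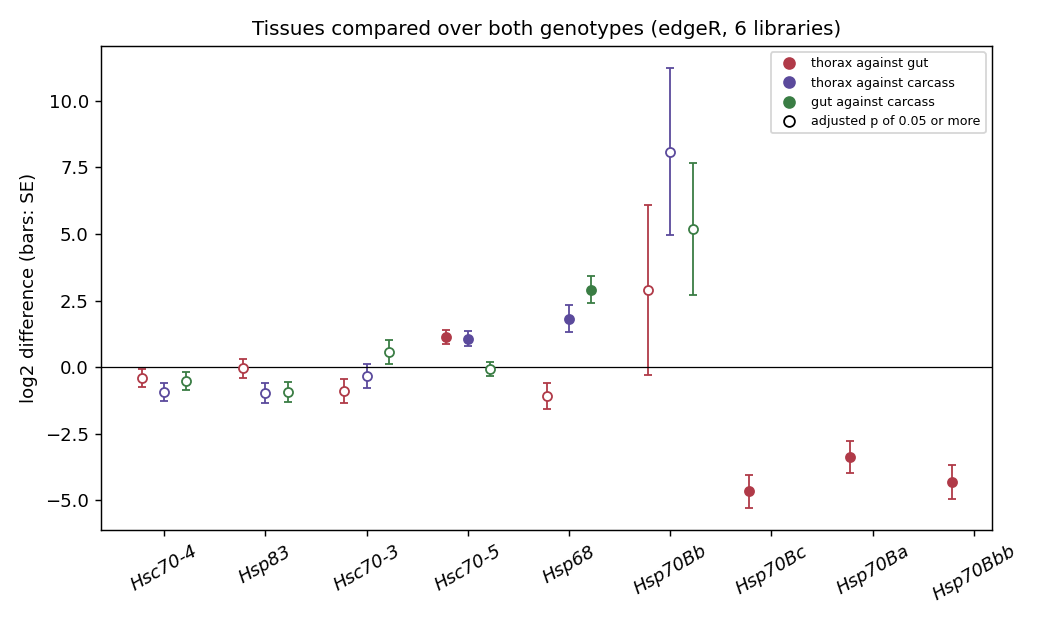
Log2 difference between tissues over both genotypes (edgeR, 6 libraries) for 9 members, with SE (approximate, derived from the F statistic) as bars. Open symbols mark an adjusted p of 0.05 or more. Comparisons with carcass are not drawn for Hsp70Ba, Hsp70Bbb and Hsp70Bc, which had at most 1 read there; the wide bars of Hsp70Bb (SE 3.19 for thorax against gut) come with the unlike thorax pair.

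A genotype term common to the 3 tissues gave 0 of 9 members past the threshold in edgeR, as it did for 0% of all genes. At an unadjusted p under 0.05 there were 633 genes, DESeq2 called 35 higher and 88 lower, and limma called 0. The copy sum had a log2 difference of 2.55 (SE 2.20, adjusted p = 0.872, edgeR).

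Among Hsp70 relatives that are not members, Hsc70-1 was higher in thorax than in the other tissues and Hsc70-2 was called higher in foxo RNAi thorax. Hsc70-1, a further constitutive relative, had 6253 and 11312 reads in thorax, 7 and 22 in gut, and 51 and 40 in carcass, control first. It was higher in thorax than in gut by a log2 difference of 7.94 and than in carcass by 6.93 (adjusted p = 0.000477 and 0.00146, edgeR). Hsc70-2 had 33 and 222 reads in thorax, and was 3.27-fold higher in foxo RNAi (2.29 to 4.93), a called difference. Its reads were 16 and 36 in gut and 110 and 126 in carcass. Hsc70Cb, the Hsp110 that exchanges nucleotide for Hsp70, had ratios of 1.23, 0.999 and 1.37 in thorax, gut and carcass, none called.

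Of 12 listed Hsp70 co-chaperones, all measured, none was called in thorax or gut and 1 in carcass. The median log2 ratio was 0.065 in thorax, 0.12 in gut and 0.11 in carcass, beside 0.0010, -0.012 and 0.055 over all genes. The gene called was stv (starvin), a BAG-domain exchange factor of muscle, with 1413 and 634 carcass reads, 2.12-fold lower in foxo RNAi. With total-count scaling its ratio was 0.528 and was not called. Droj2 and Tpr2, both J-domain proteins, lay between 0.908 and 1.12 in the 3 tissues. In thorax 6 of the 12 ratios were above 1. The highest was that of DnaJ-1, 1.69 (1.60 to 1.78) from 1701 and 5827 reads, not called. Of 9 Hsp83 co-chaperones none was called in any tissue. In carcass, where Hsp83 had its ratio of 1.53, all 9 ratios were above 1 with a median log2 of 0.44 against 0.055 over all genes. Hop, which links Hsp70 to Hsp83, stood at 1.54 in carcass, the p23 relative CG16817 at 1.27 and the myosin chaperone unc-45 at 1.15. In thorax the ratio of unc-45 was 0.575, from 8580 and 10020 reads.

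The list of 13 chaperones and stress factors of the endoplasmic reticulum, the compartment of Hsc70-3, had a median log2 ratio of 0.35 in thorax, -0.26 in gut and -0.020 in carcass. Ratios were above 1 for 11 of 13 genes in thorax, 2 in gut and 6 in carcass. CaBP1, a disulfide isomerase and the only gene of the list called in any of the 3 tissues, was 2.11-fold higher in foxo RNAi thorax (1267 and 5435 reads). Pdi, the main disulfide isomerase, had ratios of 1.46, 0.741 and 0.861 in thorax, gut and carcass. The stress factors crc (the fly ATF4) and Xbp1 had thorax ratios of 1.24 and 0.870. With total-count scaling the log2 ratios of gut shift up by 0.24, which is close to the size of the gut median.

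Of 10 mitochondrial chaperones and proteases 7 were measured, and CG4538, the ClpX subunit, was called lower in foxo RNAi thorax by 2.24-fold (15008 and 13606 reads). Hsp60, the mitochondrial chaperonin, had ratios of 1.01, 1.12 and 1.54 and Trap1, the mitochondrial Hsp90, had 0.802, 0.893 and 1.06 in thorax, gut and carcass. Of 12 small heat shock proteins, which hold unfolded proteins for Hsp70, 6 were measured in thorax and gut and 5 in carcass. In gut, Hsp23 and Hsp27 were called lower in foxo RNAi by 2.17-fold and 2.29-fold, beside Hsp68, and with total-count scaling their ratios of 0.543 and 0.514 were not called. In carcass Hsp27 was called higher, by 2.04-fold (947 and 1844 reads), and in thorax Hsp67Bc was called lower, by 2.91-fold from only 26 and 18 reads, a call lost with total-count scaling (ratio 0.365, interval 0.187 to 0.686) and at a minimum of 100 reads. CG4461 had 27185 and 59323 thorax reads, a ratio of 1.08, CG14207 (HspB8) had 22729 and 32493, a ratio of 0.704, and Hsp26 had 911 and 2259, a ratio of 1.22. The 6 genes l(2)tid, CG6878, Hsp22, CG7409, CG13133 and l(2)efl lie inside another coding gene, are listed at 0 and were treated as not measured. Hsf, the heat shock factor gene, had ratios of 0.903, 1.06 and 1.26.

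**Figure D5:**
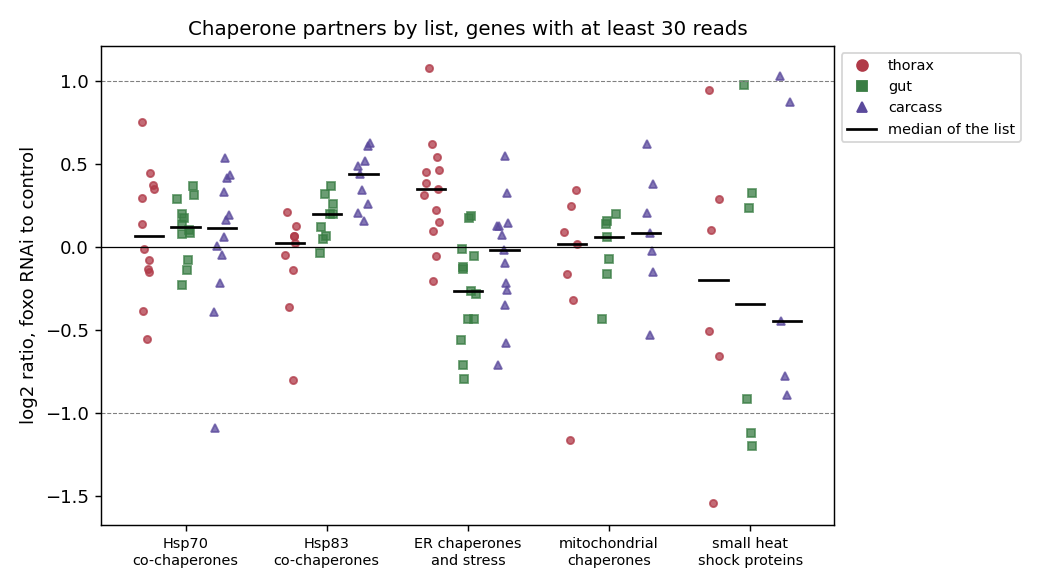
Log2 ratio of foxo RNAi to control for chaperone partners with at least 30 reads, by list and tissue, with the median of each list as a bar and 2-fold as dashed lines. The list of the endoplasmic reticulum has medians of 0.35 in thorax and -0.26 in gut, and few genes pass 2-fold.

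The genes whose pattern was most like that of the copy sum, by Pearson correlation of log2(CPM + 1) over the 6 libraries among 9184 genes, were app (r = 0.964), ATPsynF (0.942), CG32706 (0.909), CG42376 (0.908) and CG8481 (0.903). For Hsp83 they were CG11722 (0.999), phm (0.996), Nf-YC (0.996), CG13676 (0.996) and Taf5 (0.995). These are descriptions over 6 points that share library depth, tissue and genotype, and for the copy sum the value is set largely by 1 library. The correlation does not compare the size of changes. In control and foxo RNAi thorax app had 1161 and 2754 reads, where the copy sum had 40 and 43359. Some of these genes had few reads, CG32706 between 2 and 48 and phm between 0 and 96 in a library.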

How the data were processed

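Whole-number counts of reads for each gene, with no normalization, and RPKM values, in which length is the genomic span, were deposited by the authors. A stranded total RNA kit was used, per the labels. The design text states reads of 50 bases from 1 end, mapped to Release 6. The sources used here do not name the aligner, the counter or its strand setting. The design text also gives 7 to 12 times 1e+06 reads per library, fewer than the deposited counts sum to. RPKM times length gave whole reads (tolerance 0.001) for all entries.

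In each tissue, counts were scaled by TMM (edgeR 4.0.16, R 4.3.3), 0.5 was added to each count, and exact Clopper-Pearson 95% intervals were taken (scipy 1.17.1). Intervals and the floor of 3 counts cover counting error only, and PCR copies are not separate molecules. A call needed at least 30 reads, at least 2-fold and a near bound of at least 1.5-fold. The tissue test was edgeR's quasi-likelihood fit to 6 libraries, with TMM, filterByExpr and Benjamini-Hochberg adjusted p under 0.05 over 9293 genes, and with the copy sum as an added row. The biological coefficient of variation common to all genes was 0.297. The edgeR test returns no SE. The SE given with its differences is the absolute log2 difference divided by the square root of the F statistic, an approximation. The fits were run on data simulated from the assumed count models, which cannot check the spread between unreplicated libraries. Alternatives were total-count and DESeq2 1.42.0 scaling, other read minimums, added counts and folds, DESeq2's Wald test, limma 3.58.1 on log2(RPKM + 0.1), no filter, no genotype covariate, and each library left out. The genes named are the 10 members, listed partners that were called, the 3 genes of each list with the most reads, and the 5 most alike in pattern. Hsf, Hsp70Aa, DnaJ-1 and Act88F were named outside that rule, after their values were seen. The members and lists were chosen with earlier results of these data known.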

Additional observations from a re-analysis of the deposited data

Results flagged for a closer look

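Some genes had ratios of foxo RNAi to control that went in opposite directions in different tissues, each by at least 1.5-fold and with a counting interval that did not include 1. For Hsp68 the log2 ratio in thorax exceeded that in gut by 2.004 and that in carcass by 1.459. For Hsc70-3 the log2 ratio in thorax exceeded that in gut by 1.61. For Hsp27, a small heat shock protein gene, the log2 ratio in thorax exceeded that in gut by 2.139, and the log2 ratio in gut minus that in carcass was -2.224. With 1 library per genotype and tissue, these differences between tissues were not tested. With total-count scaling the gut ratio of Hsc70-3 was 0.710 and the carcass ratio of Hsp68 was 0.723, neither of which reached 1.5-fold lower, so Hsc70-3 in thorax against gut and Hsp68 in thorax against carcass would no longer meet the condition.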

How the results depend on the processing

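No paired analysis was possible because the labels number no replicates that could form a block. Genotype, shared by libraries of different tissues, was instead a term of the tissue fit, and fits without it are given as an alternative. In thorax the ratio of the copy sum was 4.11 without Hsp70Bb, and 4 members were called at 1.5-fold. In gut the copy sum was 1.03 with total-count scaling and 1.03 on RPKM, and the members called were 0 and 0 with these and 3 at 1.5-fold. In carcass the copy sum was 1.05 without Hsp70Bb (0.0134 to 82.3), from only 1 read in each library, which is under the read minimum. There 1 member was called on RPKM and 2 at 1.5-fold. The shares of all genes called under these alternative rules were not computed, so these counts only describe the members.

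Between thorax and carcass, 6 members passed with DESeq2, 7 without the genotype covariate and 5 with limma on RPKM. With DESeq2 size factors in edgeR 3 passed, and with no filter on low counts 2. Over all 9293 genes DESeq2 passed 2395 as higher in thorax and 2044 as lower. These numbers were 2076 and 1880 without the covariate, 1808 and 2461 with limma, and 2126 and 1661 with DESeq2 size factors. With no filter they were 1921 and 1775 of 11216 genes. The copy sum passed at 8.17 with DESeq2 and 9.10 without the covariate. Between gut and carcass, 7 members passed with limma, which passed 1136 of 9293 genes as higher in gut and 4039 as lower. The copy sum passed there at 5.63 with DESeq2. Leaving out each library in turn gave 1 to 6 members for thorax against gut, 0 to 3 for thorax against carcass and 3 to 5 for gut against carcass. The copy sum ranged from -3.93 to 4.79, from 1.24 to 9.97 and from 1.96 to 8.04 in these comparisons. Directions also turned for some single genes. Hsp83 for thorax against gut was 0.023 with DESeq2 size factors, 0.022 with DESeq2 and 0.47 with limma, and ranged from -0.40 to 0.37 over omissions. With limma Hsc70-4 was 0.078 for thorax against gut and Hsc70-3 was -0.16 for gut against carcass. The limma fit used RPKM with no TMM scaling, unlike the edgeR fit. Over omissions Hsp70Bb ranged from -3.81 to 5.57 for thorax against gut, Hsc70-3 from -0.96 to 0.17 for thorax against carcass and from -0.12 to 1.12 for gut against carcass, and Hsc70-5 from -0.23 to 0.088 for gut against carcass. Apart from settings that remove or add libraries, genes or reads, the cause was not tested. Each thorax and carcass library held at most 15 reads of Hsp70Ba, Hsp70Bbb and Hsp70Bc each, which limits the precision of their ratios there.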
